A study of Mus musculus with 5 samples.

Results

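Genes of the Wnt pathway were examined in the colon of mouse embryos that carried floxed HNF4 alleles. The members were chosen by gene symbol: all Wnt ligands, Frizzled receptors, Sfrp and Dkk inhibitors, the co-receptors Lrp5 and Lrp6, the inhibitor Wif1 and a named series of nuclear factors, feedback genes, targets and progenitor markers. The array held 86 such probe sets for 55 genes, among 22626 probe sets tested for 12393 named genes, and Ephb2, Tcf7 and Znrf3 had no probe set with a single symbol. Whole fetal colons at E18.5 were compared on 1 array per embryo. The HNF4 null group comprised 3 embryos (null_59, null_60 and null_426) of the genotype HNF4LoxP/LoxP FoxA3Cre, and the control group comprised 2 (CONTROL_406 and CONTROL_421) of the genotype HNF4LoxP/+ FoxA3Cre. Both groups therefore carried the Cre transgene and at least 1 floxed allele. Foxa3, for which the Cre is named, encodes an endodermal transcription factor, and how completely the allele was recombined was not given in the sources used here. HNF4 is a nuclear receptor made in gut epithelial cells.

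Wnt proteins are secreted lipid-modified ligands that bind Frizzled receptors together with Lrp5 or Lrp6. In the canonical branch, this protects beta-catenin from degradation, so that it enters the nucleus and acts with Tcf and Lef factors on target genes. In the intestine this signal maintains the proliferating cells at the base of the epithelium, and both mesenchymal and epithelial cells produce ligands. Other ligands act without beta-catenin on cell movement and polarity.

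No member probe set passed the threshold. By limma with Benjamini-Hochberg adjustment over all probe sets, 0 of 86 had an adjusted p under 0.05, against 0.124% of all probe sets (28 of 22626; 0.0177% higher and 0.106% lower in null), and the smallest adjusted p of a member was 0.578. At an unadjusted p under 0.05 there were 5 members (5 of 86, against 7.15% of all probe sets), 3 higher (2.82%) and 2 lower (4.33%) in HNF4 null colons. They were single probe sets of the ligand genes Wnt5b, Wnt9b and Wnt4 on the higher side and of the inhibitor gene Sfrp1 and the receptor gene Fzd9 on the lower side. The median difference of the members, null minus control, was 0.069 on the log2 scale, beside 0.016 for all probe sets, and 81 of the 86 lay within 0.5 of 0 (94.2% of members and 94.1% of all probe sets). For 78 members the 95% interval lay between -1 and 1 on the log2 scale of the fit, and for the other 8 it reached past -1 or 1. A constant was added to each intensity on that scale, so changes of dim probe sets are understated. A 2-fold change in intensity itself was therefore not excluded for all of the 78. All null arrays lay above both controls, or all below, in 21 of the 86 members (14 above and 7 below), against 23.7% of all probe sets (12% above and 11.6% below). The count at an unadjusted p under 0.05 was 3 without null_59 (3.49% of members, against 4.96% of all probe sets), 9 without null_426 (10.5% against 5.25%) and 10 without CONTROL_406 (11.6% against 10.1%). Without CONTROL_406, 1 member, a probe set of Wnt5b, passed the threshold, among 104 of all probe sets.

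**Figure D1:**
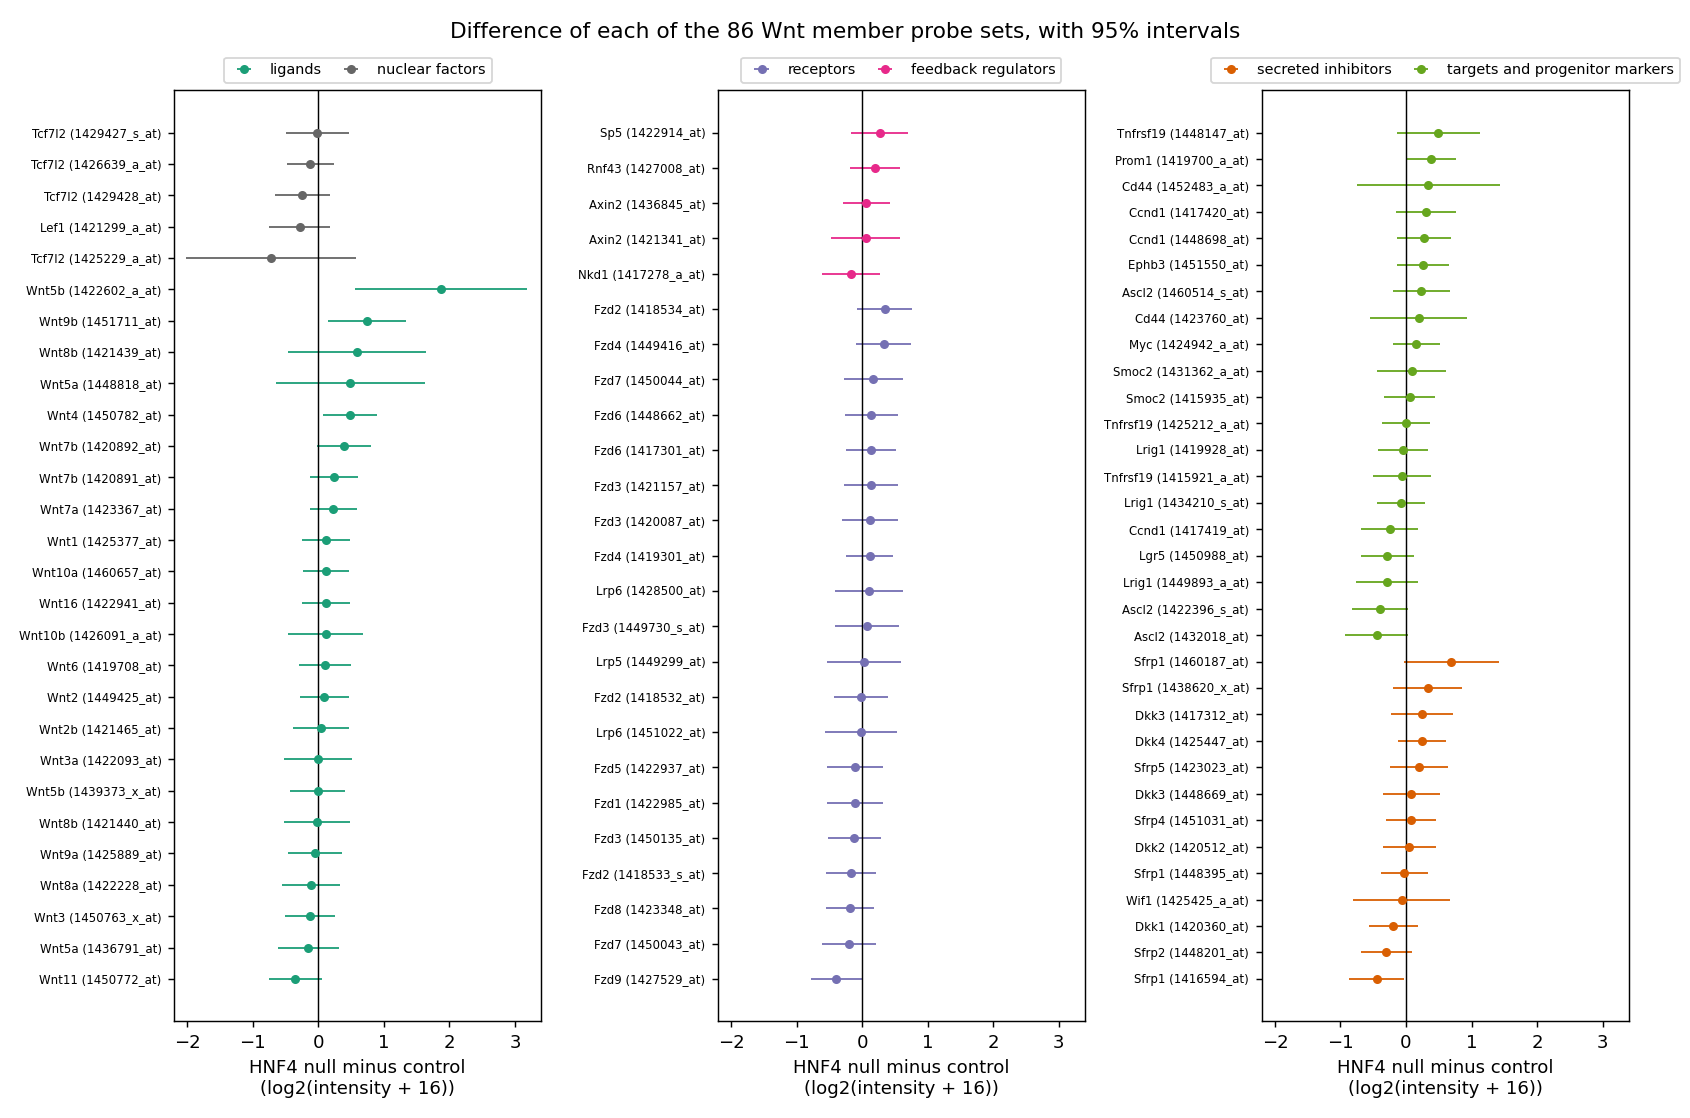
Difference between HNF4 null (n = 3) and control (n = 2) colons for each of the 86 member probe sets, on the log2(intensity + 16) scale; points are limma estimates, bars are 95% intervals and colours give the role of the gene. Most intervals span 0, and the interval of the Wnt5b probe set 1422602_a_at, at 1.87, and that of the Tcf7l2 probe set 1425229_a_at, at -0.72, are among the widest.

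The series as a whole set the following limits. The deposited values are intensities on a linear scale, given here as deposited, and differences are on the log2(intensity + 16) scale after quantile normalisation, which understates changes of dim probe sets. Fold values were taken from these differences and include the added 16, so they are not ratios of the deposited intensities. Of the members, 51 (59.3%) had a mean below the median of all probe sets. The labels name HNF4 without saying which gene was floxed, and of the 4 probe sets of Hnf4a 0 passed. Probe set 1427000_at of Hnf4a read 344, 348 and 358 in the null arrays and 639.9 and 442 in CONTROL_406 and CONTROL_421 (difference -0.55, adjusted p = 0.603). The differences of the other 3 ran both ways, at -0.35 (1427001_s_at, groups apart), 0.14 (1421983_s_at) and 0.19 (1450447_at, both overlapping), and the parts of the gene they cover relative to the loxP sites were not given. All 5 measured genes of hindgut position (Cdx1, Cdx2, Hoxa13, Hoxb13 and Hoxd13) were lower in null colons on average, with a summed intensity of 823 to 1194 in null and 1471 to 1699 in control arrays. Of all 22626 probe sets, 10649 had a difference below 0. At an unadjusted limma p under 0.05, 3 of the 5 were lower (4.33% of all probe sets were) and 0 higher, and 0 passed the threshold. Cdx2 is also 1 of the 8 epithelial markers that follow. Summed intensities of 8 epithelial markers were 11825 to 15306 against 15118 to 15971, those of 6 smooth muscle genes 14677 to 16167 against 12208 to 15091, and those of 7 fibroblast and mesenchyme genes 7928 to 10443 against 9345 to 10652. At an unadjusted limma p under 0.05, 2 of the 8 epithelial markers were lower (Epcam, -0.66, and Vil1, -0.74; 4.33% of all probe sets were) and 0 higher. Of the 6 smooth muscle genes 2 were higher (Myh11, 0.57, and Tagln, 0.56, against 2.82% of all probe sets) and 0 lower. In both lists 0 passed the threshold. For 6 proliferation genes the sums did not overlap, at 3737 to 4288 in null and 2978 to 3459 in control arrays, although 0 of the 6 passed. The sums were also apart for 5 endothelial genes (911 to 1081 against 820.1 to 839) and 3 mesothelial genes (373 to 454 against 242 to 368), and overlapped for leukocyte, erythroid, enteric neuron and small intestine genes. The part of cell composition in any value below was not tested, and in whole colons fewer cells of a type and less RNA per cell cannot be told apart.

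Promoter windows from RefSeq (GRCm38.p6, 250 bases before to 50 after each gene's start) were found for 37 of the 55 member genes, with 47 windows. The letters CTTTGAT, a core of the site bound by Tcf and Lef factors, occurred on either strand in 4 of the 47 windows (8.51%), those of Sp5, Tnfrsf19, Wnt11 and Wnt5b, and in 3.73% of all 32851 windows. The letters CAAAGTCCA, an HNF4 motif that shares the letters CAAAG with the reverse complement ATCAAAG of the Tcf core, occurred in 1 member window, that of Wnt3, and in 0.475% of all. A match is a description of these letters and not evidence of binding, and 18 member genes had no window. The 4 stretches with the Tcf core are shown because they place members of different roles, whose values follow, beside the motif of the pathway itself. Each is written in the direction of the gene, with the matched letters in capitals, from Sp5 at chr2:70474779-70474865 (plus strand), Tnfrsf19 at chr14:61038143-61038229 (minus strand), Wnt11 at chr7:98835021-98835107 (plus strand) and Wnt5b at chr6:119449411-119449497 (minus strand).
Sp5: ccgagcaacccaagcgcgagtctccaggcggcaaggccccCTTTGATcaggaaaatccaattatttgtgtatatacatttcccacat
Tnfrsf19: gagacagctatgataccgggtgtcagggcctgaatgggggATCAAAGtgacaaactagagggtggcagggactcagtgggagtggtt
Wnt11: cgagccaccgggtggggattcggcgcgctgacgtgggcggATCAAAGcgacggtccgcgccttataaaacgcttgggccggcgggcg
Wnt5b: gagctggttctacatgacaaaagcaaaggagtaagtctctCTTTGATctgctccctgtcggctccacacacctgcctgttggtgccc
The matches begin 104, 202, 51 and 71 bases before the annotated start of Sp5, Tnfrsf19, Wnt11 and Wnt5b. In these 4 genes the differences between the groups ran both ways: 0.27 for Sp5, 0.0022, 0.49 and -0.055 for the 3 probe sets of Tnfrsf19, -0.35 for Wnt11 and -0.013 and 1.87 for those of Wnt5b.

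Among the ligands, 0 of 23 probe sets (19 genes) passed the threshold, and 3 were higher at an unadjusted p under 0.05, against 2.82% of all probe sets. One of the 3 is the Wnt5b probe set with a value below 0 in CONTROL_421. Wnt9b, a ligand best known from the developing urogenital tract, read 126, 163 and 265 in the null arrays (null_59, null_60 and null_426, the order used for all genes) and 97.9 and 96.3 in the controls (CONTROL_406, then CONTROL_421). All 3 null arrays lay above both control arrays, with null_426 farthest away. The estimate was 1.67-fold higher (95% interval 1.10 to 2.52, log2 difference 0.74 ± 0.27 SE, adjusted p = 0.629), and 0.47 on the log2 scale without null_426. Wnt4, a ligand of kidney and reproductive tract development, read 154, 145 and 118 in the null and 86.5 and 93.3 in the control arrays, again without overlap. Its difference was 0.48 ± 0.18 (SE), or 1.40-fold (1.05 to 1.86, adjusted p = 0.649), and lay between 0.40 and 0.62 with any 1 array left out.

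Wnt7b, which encodes a ligand made by epithelia, was measured by 2 probe sets, both with higher readings in the null arrays. Probe set 1420892_at gave 233, 199 and 262 against 158 and 184, and 1420891_at gave 102, 93.6 and 91.9 against 77.5 and 70.5. The null and control arrays did not overlap in either, at differences of 0.39 ± 0.19 (SE, adjusted p = 0.716) and 0.24 ± 0.16 (SE, adjusted p = 0.782). The closely related ligand gene Wnt7a read 76.1, 81.9 and 84.02 in null and 66.6 and 57.8 in control arrays (difference 0.23). The ligand genes Wnt1 and Wnt10a also had all null arrays above both control arrays, with small differences of 0.12 and 0.11.

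Wnt5b, a ligand of the beta-catenin-independent branch, had the largest difference of any member by 1 probe set and almost none by the other. Probe set 1422602_a_at read 125, 155 and 123 in the null arrays, 84.6 in CONTROL_406 and -296 in CONTROL_421. The value below 0 was set to 0 before the fit, and the estimate of 1.87 ± 0.58 (SE, adjusted p = 0.578) rested largely on it. Without CONTROL_421 it was 0.55 (adjusted p = 0.927), and without CONTROL_406 it was 3.20 (adjusted p = 0.00209). Probe set 1439373_x_at of the same gene read 68.7, 81.6 and 79.1 against 63.3 and 83.7, a difference of -0.013 ± 0.18 (SE).

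On the lower side, Wnt11, another ligand of the beta-catenin-independent branch, read 33.4, 36.6 and 40.2 in null and 41.01 and 54.1 in control arrays. All null arrays lay below both control arrays, at a difference of -0.35 ± 0.18 (SE, adjusted p = 0.731). Wnt11 was the only ligand probe set with the groups apart in this direction. In the opposite direction there were 8 of 23, for Wnt5b, Wnt9b, Wnt4, Wnt7b (2 probe sets), Wnt7a, Wnt1 and Wnt10a, beside 12% of all probe sets higher and 11.6% lower without overlap. The count of 8 was the same with the table as deposited, where the share of all probe sets was 14.6%, and with median centring, where it was 11%. Whether the ligands differ from other probe sets in this was not tested, and 17 of the 23 had means below the median of all probe sets.

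The remaining ligand probe sets overlapped between the groups. Wnt3a, a strong activator of the canonical branch, read 258, 355 and 427 against 322 and 377, a difference of -0.0061 ± 0.23 (SE), and its null arrays spanned both controls. Wnt6 read 386, 365 and 417 against 342 and 401 (difference 0.10). Wnt5a, the main mesenchymal ligand of gut elongation, gave 94.6, 77.1 and 67.8 against 103 and 68.8 by 1436791_at, while the dimmer 1448818_at read 188 in null_426 alone and 32.3 to 45.5 elsewhere. The differences of these probe sets were -0.15 ± 0.21 and 0.49 ± 0.51 (SE). Those of Wnt2, Wnt2b, Wnt3, Wnt8a, Wnt9a, Wnt10b, Wnt16 and the probe set 1421440_at of Wnt8b lay between -0.12 (Wnt3) and 0.11 (Wnt16). A second probe set of Wnt8b, 1421439_at, differed by 0.59 ± 0.47 (SE), with a reading of -28.3 in CONTROL_421.

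**Figure D2:**
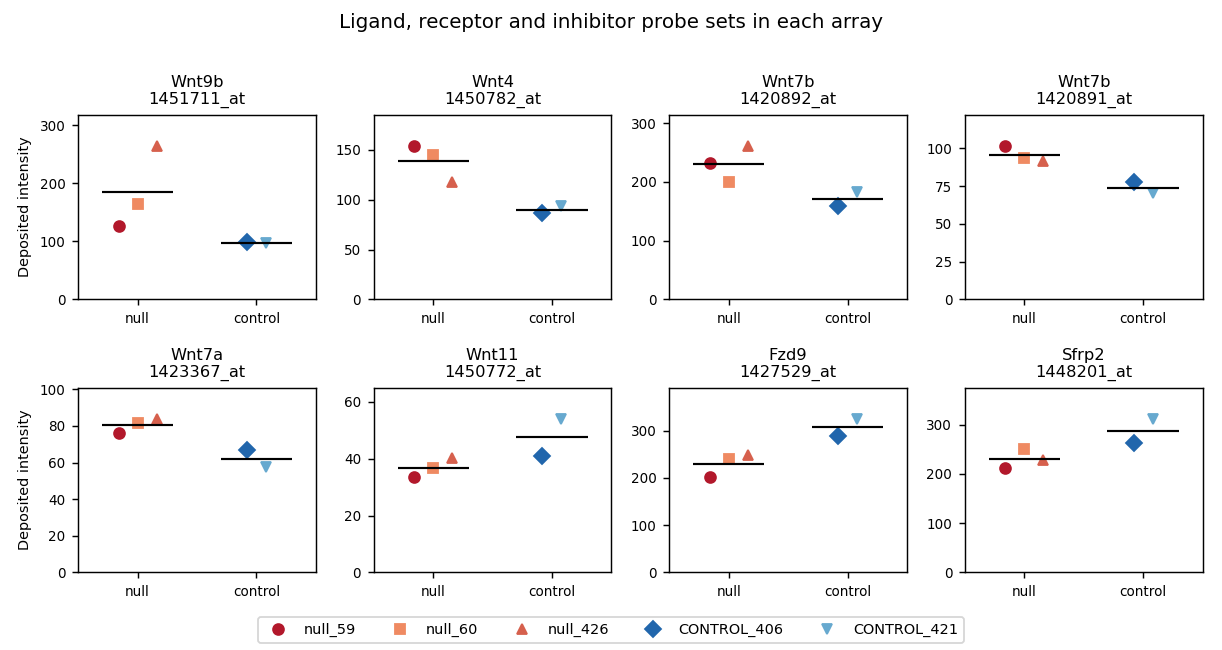
Deposited intensity (linear scale, from 0) in each array for 8 probe sets of ligands, a receptor and an inhibitor; each symbol is 1 embryo and lines are group means of 3 null and 2 control arrays. The 3 null arrays lie above both control arrays for Wnt9b, Wnt4, Wnt7b (both probe sets) and Wnt7a and below them for Wnt11, Fzd9 and Sfrp2, and none of these passed the threshold.

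For the receptors, 0 of 20 probe sets (11 genes) passed, and 1 was lower at an unadjusted p under 0.05, against 4.33% of all probe sets. This was Fzd9, a Frizzled receptor gene, which read 201, 241 and 248 in null_59, null_60 and null_426 and 289 and 326 in the controls. No null array reached the lower control, and the difference was -0.39 ± 0.17 (SE), 1.31-fold lower (adjusted p = 0.696). The other Frizzled genes showed smaller differences or disagreed between their own probe sets. Fzd2 was higher by 1418534_at, at 235, 246 and 276 against 168 and 225 (0.34 ± 0.19 SE, adjusted p = 0.754), while 1418533_s_at gave -0.16 and 1418532_at -0.019. Fzd4, which also serves as the receptor of the ligand Norrin, read 175, 173 and 171 against 152 and 158 by 1419301_at, a narrow spread with a difference of 0.11. Its dimmer probe set 1449416_at read 16.8, 18.9 and 16.4 against 15.1 and 4.39 (0.33 ± 0.18 SE).

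The co-receptors that pair with Frizzled showed no separation. Lrp6 read 144, 230.5 and 153 against 188 and 125 by 1428500_at, where null_60 was the highest of the 5 and CONTROL_421 the lowest, and the difference was 0.11 ± 0.23 (SE). The dimmer Lrp6 probe set 1451022_at differed by -0.021 ± 0.24 (SE). Lrp5 read 61.8, 50.01 and 34.4 against 59.1 and 29.7 (0.027 ± 0.25 SE). The signs of Lrp5 and of Lrp6 by 1428500_at depended on which array was left out. The Frizzled probe sets not named so far, of Fzd1, Fzd3, Fzd5, Fzd6, Fzd7 and Fzd8, differed by -0.20 (Fzd7, 1450043_at) to 0.17 (Fzd7, 1450044_at). Fzd8 was the only one of them with the groups apart after normalisation, at 61.1, 68.6 and 63.7 in null and 70.01 and 71.9 in control arrays (-0.19).

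The secreted inhibitors include proteins that bind Wnt proteins (Sfrp and Wif1) or the Lrp co-receptors (Dkk1, Dkk2 and Dkk4). Of their 13 probe sets (9 genes) 0 passed, and 1 was lower at an unadjusted p under 0.05, also against 4.33%. It belonged to Sfrp1, whose 4 probe sets disagreed. By 1416594_at Sfrp1 read 55.2, 53.8 and 79.98 in null and 99.2 and 72.96 in control arrays (-0.44 ± 0.19 SE, adjusted p = 0.690); by 1460187_at it read 113, 154 and 93.5 against 105 and 34.2 (0.69 ± 0.32 SE, adjusted p = 0.712). By 1460187_at null_60 was highest and CONTROL_421 lowest, and the difference was 0.12 without CONTROL_421. By 1416594_at null_426 lay above CONTROL_421 as deposited, and all null arrays lay below both controls after normalisation. The other probe sets of Sfrp1 gave 0.33 (1438620_x_at) and -0.023 (1448395_at, at 218, 214 and 243 against 234 and 223).

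Sfrp2, a mesenchymal inhibitor gene, read 213, 250.5 and 228 in null and 262 and 313 in control arrays, all null arrays being lower (-0.30 ± 0.17 SE, adjusted p = 0.762). Dkk4, an inhibitor gene that is itself a Wnt target, read 152, 147 and 174 against 125 and 127, all null arrays being higher (0.25 ± 0.16 SE, adjusted p = 0.780). Dkk1 read 106, 104 and 127 against 123 and 129 (-0.19), Dkk2 53.7, 47.5 and 46.5 against 38.9 and 47.6 (0.052), and the 2 probe sets of Dkk3 differed by 0.081 and 0.25. Sfrp4 and Sfrp5 differed by 0.078 and 0.20. Wif1 was dim in all 5 arrays, at 5.79, 25.6 and 20.7 against 8.16 and 27.4, and its difference of -0.067 ± 0.33 (SE) had the 95% interval -0.81 to 0.67.

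The nuclear factors were represented by Tcf7l2, the main Tcf factor of the intestinal epithelium, and Lef1. All 5 of their probe sets had a lower mean in null colons, with a median difference of -0.24, but in each the arrays overlapped and 0 had an unadjusted p under 0.05. Lef1 read 139, 129 and 201 in null_59, null_60 and null_426 and 210.3 and 169 in the control arrays (-0.29 ± 0.21 SE, adjusted p = 0.795). Here null_426 lay between the controls and the other 2 null arrays lay below both. Tcf7l2 read 542, 401 and 692 against 390.1 and 2105 by 1425229_a_at, so that CONTROL_421 was 1 array far above the rest. The difference of -0.72 ± 0.58 (SE) was 0.50 without CONTROL_421. By 1429428_at Tcf7l2 read 106, 137 and 128 against 172 and 120.1 (-0.24 ± 0.19 SE), and the probe sets 1426639_a_at and 1429427_s_at gave -0.12 and -0.016. With the table as deposited and with median centring, 4 of the 5 rather than 5 were below 0.

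**Figure D3:**
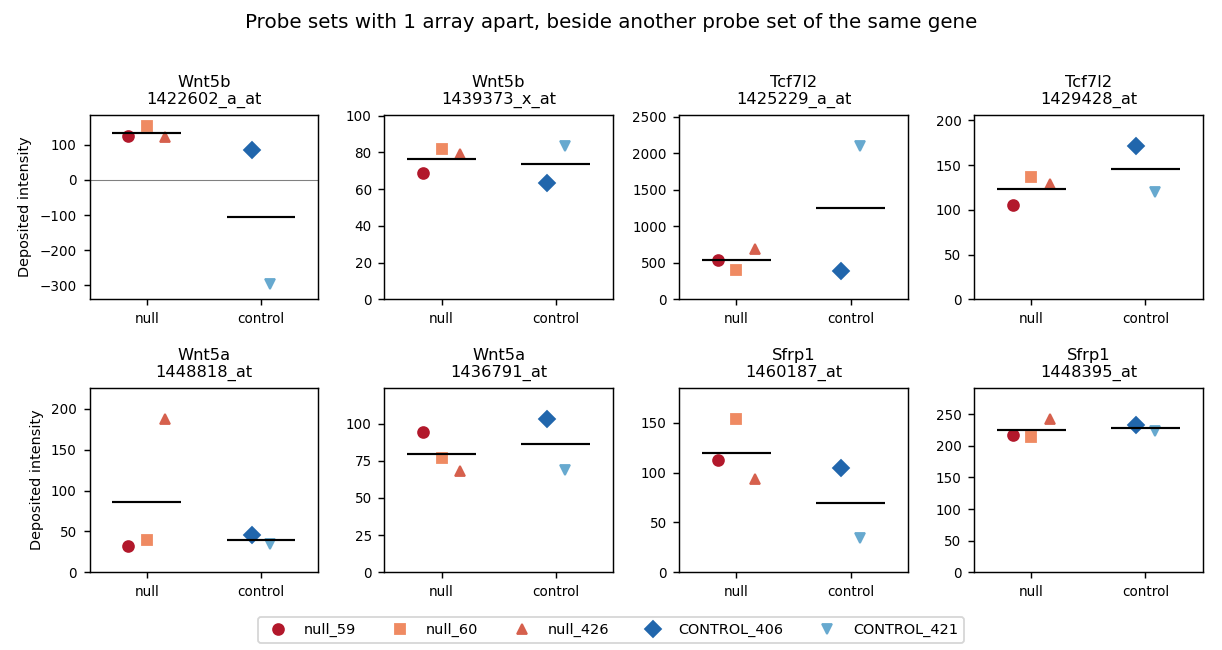
Deposited intensity (linear scale) in each array for 4 genes, with a probe set in which 1 array stands apart beside another probe set of the same gene to its right; symbols are embryos and lines group means. CONTROL_421 stands apart for Wnt5b (-296), Tcf7l2 (2105) and Sfrp1 (34.2) and null_426 for Wnt5a (188), and the probe set drawn beside each shows no such array. Tcf7l2 and Sfrp1 have further probe sets that are not drawn.

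A single array departed by over 1 on the log2 scale from the median of the other 4 in 7 members (8.14%), against 3.04% of all probe sets. The array was CONTROL_421 for probe sets of Wnt5b, Tcf7l2, Wnt8b, Cd44 and Sfrp1 and null_426 for those of Wnt5a and Wnt9b. CONTROL_421 was the lowest of the 5 arrays in 24 of the 86 members (27.9%), against 22.7% of all probe sets, and null_426 the highest in 21 (24.4%), against 27.1%.

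Axin2, Sp5, Rnf43 and Nkd1, grouped here as genes that Wnt signalling induces and that restrain it in turn, did not separate the groups. Dkk4, given with the inhibitors, is also a Wnt target, and all its null arrays were higher. Axin2, the scaffold of the beta-catenin destruction complex and the usual readout of the canonical branch, read 359, 335 and 339 in null and 337 and 333 in control arrays by 1436845_at. These 5 readings were close together, and the difference of 0.061 ± 0.16 (SE) had a 95% interval from -0.30 to 0.42; it was -0.0083 with median centring. The dimmer Axin2 probe set gave 119, 81.3 and 143 against 88.8 and 120.2 (0.054 ± 0.23 SE). Sp5, a transcription factor gene induced by Wnt, read 120.04, 106 and 147 against 115 and 79.2 (0.27 ± 0.19 SE, adjusted p = 0.793). Rnf43, a ubiquitin ligase that removes Frizzled from the cell surface, read 46.97, 55.6 and 60.4 against 48.8 and 34.8 (0.20 ± 0.17 SE). Nkd1, which binds Dishevelled, read 65.5, 46.4 and 43.97 against 55.4 and 54.4 (-0.17 ± 0.20 SE). Of these 5 probe sets 0 had an unadjusted p under 0.05 and in all 5 the groups overlapped.

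Targets and markers of intestinal progenitors gave 0 of 20 probe sets (10 genes) past the threshold and 0 at an unadjusted p under 0.05, with a median difference of 0.071. Prom1, which encodes the membrane protein CD133 of progenitor cells, came closest. It read 407, 464 and 342 in null and 312 and 303 in control arrays, so that all null arrays were higher, by 0.38 ± 0.17 (SE, 1.30-fold, unadjusted p = 0.0515 and adjusted p = 0.702 by limma). Lgr5, the R-spondin receptor that marks intestinal stem cells, read 104, 92.5 and 128 against 142 and 118. As deposited, null_426 lay above CONTROL_421, and after normalisation all null arrays lay below both controls (-0.28 ± 0.18 SE, adjusted p = 0.777). The margin was very narrow, at 7.125 in null_426 against 7.129 in CONTROL_421 on the normalised log2 scale.

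Ascl2, a transcription factor gene of intestinal stem cells, was measured in opposite directions. The probe set 1460514_s_at read 427, 371 and 452 in null and 319.9 and 402 in control arrays (0.23 ± 0.19 SE). The dimmer 1432018_at and 1422396_s_at read 11.4, 24.5 and 10.4 against 23.6 and 24.3 (-0.45 ± 0.21 SE) and 13.4, 20.02 and 12.02 against 19.96 and 25.2 (-0.39 ± 0.19 SE). In the dimmer ones null_59 and null_426 lay below the controls and null_60 lay at their level. After normalisation null_60 lay just below both controls by 1422396_s_at (5.118 against 5.136 in CONTROL_406 and 5.493 in CONTROL_421). The groups of that probe set were therefore apart on the normalised scale. The suffix _s_at marks probes that can match transcripts of more than 1 gene, so the gene behind 2 of these 3 probe sets is uncertain.

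Genes of growth and proliferation downstream of Wnt did not pass the threshold. Myc, the growth-promoting transcription factor gene, read 212, 203 and 218 against 197 and 174, all null arrays being higher by a small margin (0.16 ± 0.16 SE, adjusted p = 0.842). Ccnd1, which encodes cyclin D1, read 468, 511 and 385 against 434 and 327 by 1448698_at (0.27 ± 0.18 SE, adjusted p = 0.782). The probe set 1417420_at of Ccnd1 read 456, 454 and 436 against 464 and 285, where CONTROL_421 alone was low (0.31), and 1417419_at gave the opposite sign (-0.25). The proliferation markers given above were higher in sum in the null arrays, and their part in these values was not tested.

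Cd44, the hyaluronan receptor gene of crypt cells, read 122, 142 and 59.4 against 106 and 62.2 by 1423760_at and varied more within the groups than between them (0.19 ± 0.33 SE). By the dimmer 1452483_a_at Cd44 read 46.8, 13.5 and 16.4 against 40.1 and -1.35 (0.34 ± 0.49 SE). Ephb3, a receptor that positions cells along the crypt, read 334, 265 and 325 against 269 and 244 (0.26 ± 0.18 SE, adjusted p = 0.789), and only null_60 lay within the range of the controls. Tnfrsf19, a receptor of the tumour necrosis factor family found in stem cells, read 229, 196 and 212 against 216 and 204 by 1425212_a_at (0.0022). By 1448147_at it read 53.003, 125 and 119 against 60.2 and 56.5 (0.49 ± 0.28 SE), with null_60 and null_426 high and null_59 below both controls. Smoc2, a matricellular protein gene, differed by 0.057 and 0.085, and Lrig1, an inhibitor of epidermal growth factor receptors in progenitor cells, by -0.046, -0.071 and -0.29 over its 3 probe sets.

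**Figure D4:**
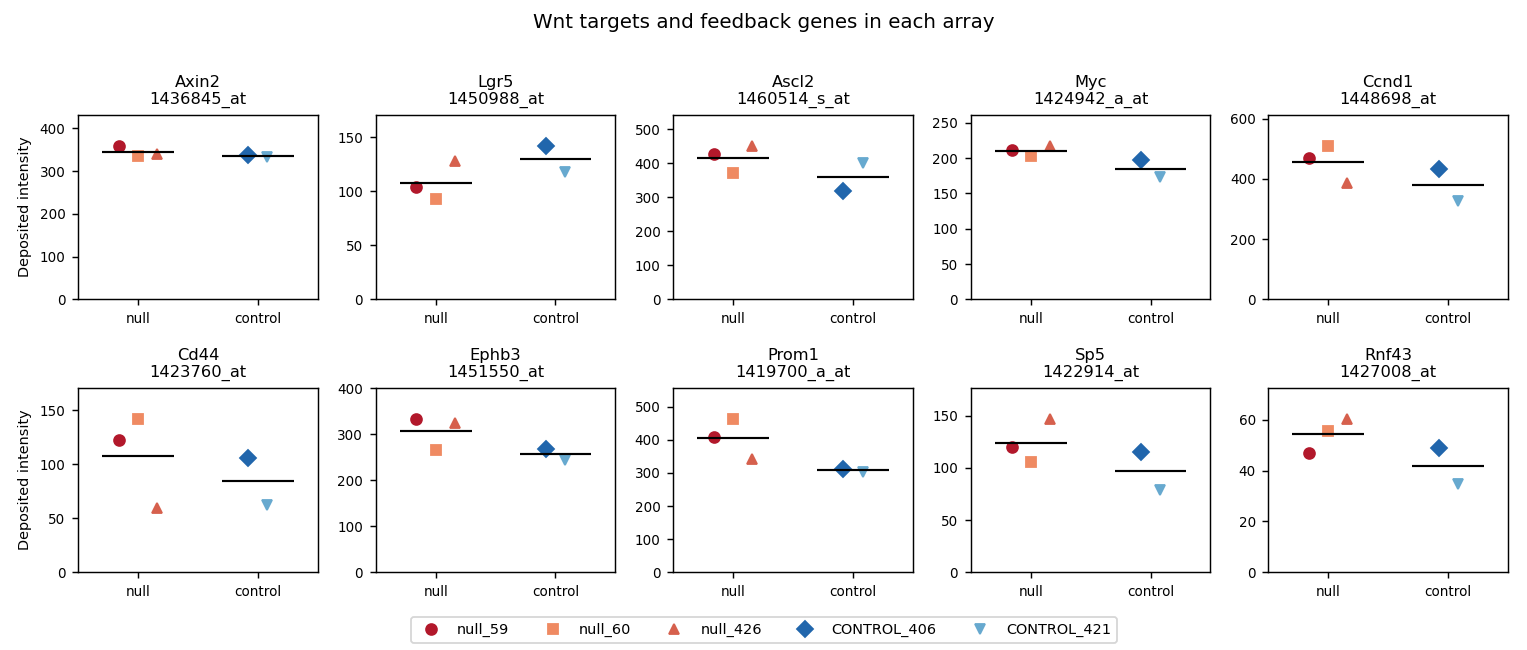
Deposited intensity (linear scale, from 0) in each array for the probe set with the highest mean of 10 target and feedback genes; symbols are embryos and lines are means of 3 null and 2 control arrays. The Axin2 readings lie between 333 and 359 in all arrays, and in this panel Prom1 and Myc are the genes whose null arrays all lie above both controls.

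Of the 55 genes, 20 had more than 1 probe set, so that the directions of their probe sets could be compared. The same counts were not made over all genes with more than 1 probe set. How often signs agree without any difference between the groups was not tested, so the counts do not establish a direction. For 7 of them all probe sets were higher in null colons, for 2 all were lower (Tcf7l2 and Lrig1), and for 11 the signs were mixed. The smallest gaps between probe sets of 1 gene were those of Fzd6, Axin2 and Smoc2, at 0.0041, 0.0063 and 0.028 on the log2 scale. Wnt5b and Sfrp1 disagreed most, with gaps of 1.89 and 1.14. The suffixes _x_at and _a_at mark probe sets with some probes shared with other sequences and with several transcripts of 1 gene, respectively.

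**Figure D5:**
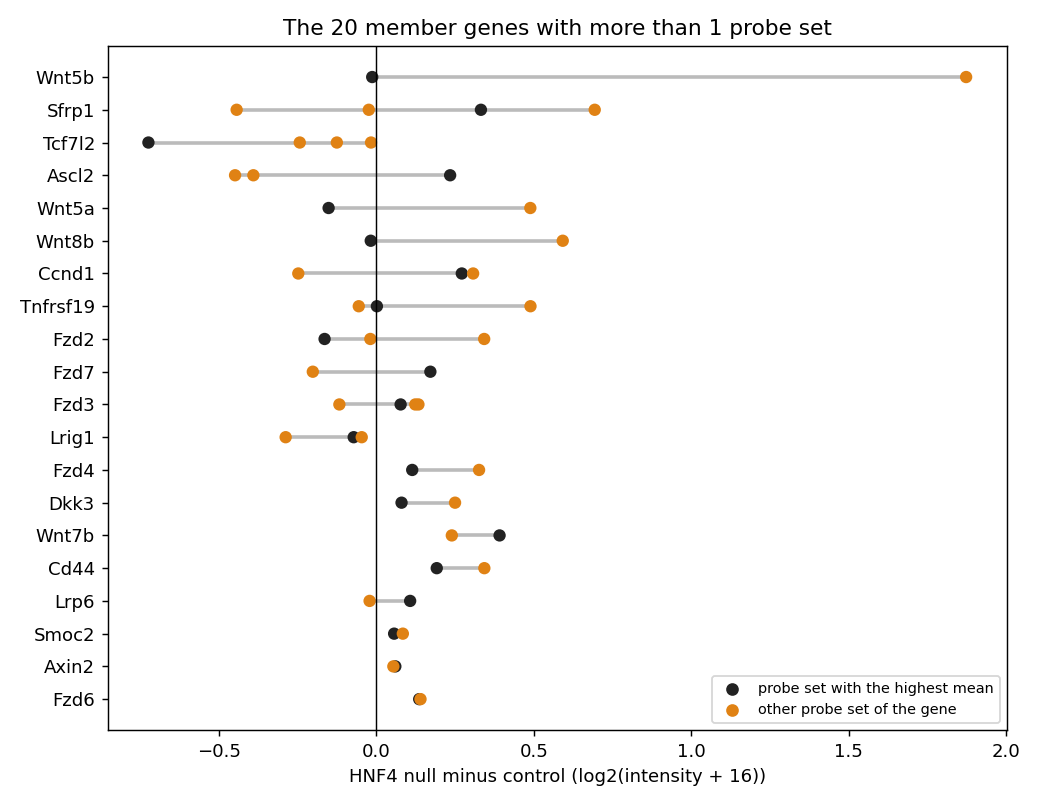
Difference between null and control colons (log2(intensity + 16) scale) for each probe set of the 20 member genes with more than 1; black points are the probe set with the highest mean, orange points the others, and grey bars join probe sets of 1 gene. The bar crosses 0 for 11 genes and is longest for Wnt5b (1.89).

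The rest of the pathway was read from a further list of 61 genes, of which 48 were measured by 87 probe sets. Of these 0 passed the threshold (0.124% of all probe sets did), while 1 was higher (2.82% of all probe sets were) and 6 lower (4.33%) at an unadjusted p under 0.05, and their median difference was -0.037. Csnk1d, a casein kinase 1 gene, read 476, 606 and 444 in null and 1001 and 1002 in control arrays by 1456727_a_at, 1.86-fold lower (-0.90 ± 0.17 SE, adjusted p = 0.171). Every null array lay well below both controls, yet the probe set 1449932_at of Csnk1d read 309.97, 342 and 256 against 250.02 and 162, in the opposite direction (0.53 ± 0.20 SE, adjusted p = 0.653), and its other 3 probe sets differed by -0.14 to 0.19. Bcl9l, a coactivator of beta-catenin, read 183, 231 and 219 against 381 and 469.6, 1.92-fold lower (95% interval 1.45 to 2.55, adjusted p = 0.172), also without overlap. With any 1 array left out its difference lay between -1.10 and -0.77. Dvl3, a Dishevelled gene that relays the receptor signal, was dim, at 19.2, 6.89 and 17.7 against 32.9 and 31.7 (-0.77 ± 0.22 SE, adjusted p = 0.504). Gsk3b, the kinase that marks beta-catenin for degradation, read 45.4, 77.7 and 50.1 against 87.2 and 93.5 by 1451020_at (-0.62 ± 0.22 SE, adjusted p = 0.615). Ctnnb1, the gene of beta-catenin itself, had readings of 1803, 2313 and 1953 against 2151 and 2714 by 1420811_a_at, and its 3 probe sets differed by -0.18, -0.11 and -0.066.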

How the data were processed

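Biotin-labelled RNA of whole fetal colons was hybridised to 1 array per embryo. The deposited table holds the authors' intensity per probe set on a linear scale, per the file headers and its values; the summarising and scaling methods are not given in the sources used here. Of 22690 probe sets 64 maker controls were left out. Values below 0 were set to 0 and log2(intensity + 16) was quantile normalised. HNF4 null (n = 3 embryos) and control (n = 2) arrays were compared by a two-sided moderated test in limma 3.58.1 (R 4.3.3, functions lmFit and eBayes). Benjamini-Hochberg adjustment was made over 22626 probe sets with a threshold of 0.05. The code was checked on data simulated from its fitted error model. The differences added there were larger than those of most members, so the check does not cover small differences. With 5 arrays, their number limits the precision, and embryos are taken as separate animals. Probe sets with a single symbol in the platform annotation were used, and all 55 member genes matched RefSeq by gene ID.

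The members and lists were chosen with earlier results of these data known. Values per array were given for member probe sets at an unadjusted p under 0.05, the 3 with the smallest p in each role, the brightest probe set of preset genes and Hnf4a, and for the 4 other pathway genes with the smallest p; further members and Ctnnb1 were added after their values were seen. Alternatives covered normalisation, pseudocount (1 and 64), dim probe sets, variance prior, array weights and left-out arrays. Promoters are RefSeq's (GRCm38.p6).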

Additional observations from a re-analysis of the deposited data

How the results depend on the processing

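No member passed the threshold under any alternative with all 5 arrays; with 1 array left out the count was 0 to 1, the 1 being the Wnt5b probe set without CONTROL_406. Members at an unadjusted p under 0.05 numbered 5, but 3 without dim probe sets (8.57% of those left, against 7.79% of all probe sets), 10 with array weights (11.6% against 11%) and 3 to 10 with 1 array left out. Members with the groups apart numbered 21, but 10 of the 35 left without dim probe sets (28.6%, against 24.8% of all), and 28 (32.6% against 33%, without null_59) to 50 (58.1% against 55.8%, without CONTROL_406) with 1 array left out. All probe sets past the threshold numbered 28, but 14 with pseudocount 1, 17 without dim probe sets, 45 with array weights and 8 (without null_60) to 104 (without CONTROL_406) with 1 array left out. The median member difference stayed between 0.032 and 0.11, and 0 other pathway probe sets passed in any setting. Of 268 values of named probe sets and genes with all arrays, 262 kept their direction and side of the threshold. The settings for the variance prior and dim probe sets leave each difference unchanged, as does the mean for a gene with 1 probe set. Those directions could not turn, so the count is not a measure of robustness. In the main fit the smallest adjusted p of a named probe set was 0.171 by limma, well above the threshold. The signs turned for Nkd1 (0.031) and Lrp6 (-0.022) with array weights, Axin2 with median centring (-0.0083), and for the mean over a gene's probe sets in Wnt5b (0.93), Ascl2 (-0.20) and Fzd2 (0.054). With 1 array left out the ranges that crossed 0 were -1.95 to 0.50 for Tcf7l2 1425229_a_at, -0.074 to 0.56 for Cd44 1423760_at, -0.26 to 0.32 for Lrp5, -0.11 to 0.33 for Lrp6 1428500_at and -0.59 to 0.45 for Wif1. The cause of these changes was not tested beyond the arrays and settings named. With 1 control array left, it is assumed to vary like the null arrays. No paired analysis was possible because the labels number each embryo and give nothing, such as a litter, that links embryos of the groups. With 51 of 86 members below the median intensity, dim signal over background limits what can be detected.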
